A study of Homo sapiens with 12 samples.

Results

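Genes that build ribosomes and run translation were compared between HEK293 cells given a mimic of the microRNA miR-1825 and HEK293 cells given a control RNA. The members are the genes named by the platform annotation whose symbols start with UTP, NOP, NOL, RRP, POLR1, EIF or EEF and hold no hyphen. RSL1D1 is added and EIF2AK2 left out. The members number 62 of 14884 named genes, 29 with ribosome biogenesis names and 33 with translation factor names. Of the 53617 rows on the array 37519 are unnamed here. No EIF3, EIF2S, EIF2B or EIF4G gene and no NOP56 is among the members, so they cover only a part of the pathway. Of the 62, 60 are protein-coding and 2 are transcribed pseudogenes, RRP7BP and EEF1DP3. HEK293 is a human embryonic kidney line transformed with adenovirus DNA. The mimic arrays came from cells transfected with Syn-hsa-miR-1825, and the control arrays from cells transfected with AllStars Negative Control siRNA, each with HiPerfect at 5 nM and with RNA taken after 24 h. There were 6 arrays in each group, all Human Gene 2.0 ST arrays, and no untransfected cells. Whether replicates were separate cultures is not stated, so p-values cover only array-to-array spread, part or all of which may be technical. In bulk RNA like this, fewer cells of a type and less RNA per cell cannot be told apart. The question asked by the series is which mRNAs miR-1825, a microRNA tied to amyotrophic lateral sclerosis, acts on.

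Ribosome assembly starts in the nucleolus, where RNA polymerase I copies the ribosomal DNA into a long precursor. Small nucleolar RNA-protein particles (snoRNPs) modify that precursor, the small-subunit processome folds and cleaves its first part, and other factors release and mature the large subunit. Initiation factors then bring the small subunit, the initiator tRNA and the capped mRNA together, and elongation factors carry the peptide forward. A microRNA pairs with mRNAs mainly through its seed, bases 2 to 8, and lowers their level or translation.

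The transfected sequence is shown because the comparison rests on it. It is given from RefSeq on GRCh38.p14, on the plus strand, with the seed in capitals in the first line. In the second line, the hairpin, capitals mark the mature sequence.
hsa-miR-1825 (chr20:32237830-32237847): uCCAGUGCccuccucucc
MIR1825 hairpin (chr20:32237795-32237847): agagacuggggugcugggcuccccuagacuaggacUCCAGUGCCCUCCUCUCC
The hairpin lies within the span of POFUT1 (chr20:32207880-32238658). Of 2351 different mature sequences in the table, 1, miR-1825 itself, has the seed CCAGUGC. Bases 2 to 7 of it are shared with 1 other mature sequence, given here because its seed is the closest in the table.
hsa-miR-199a-5p: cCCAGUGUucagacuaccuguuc
Target sites in the members' mRNAs were not analysed here.

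The ribosome biogenesis and translation genes differed little between mimic and control arrays. None of the 62 passed limma's test over all 53617 rows of the array at a Benjamini-Hochberg adjusted p of 0.05, where 0.0112% of all rows did. With the exact permutation test, 0 of 62 passed after the same adjustment and 10 (16.1%) had an unadjusted p under 0.05, against 11.4% of all rows and 21.1% of named genes in the brightest 25% of rows. By limma 7 of 62 (11.3%) had an unadjusted p under 0.05, against a background of 10.8% of all rows and 14.1% of named genes in the brightest 25% of rows. The members' share is near that background. Below, an unadjusted p is limma's. The count was 4 after quantile normalization, and 4 without mimic replicate 1, mimic replicate 3 or control replicate 3. With a trend and robust prior 8 higher and 1 lower member were under that mark. Of the 7, 6 had higher and 1 had lower means on mimic arrays. That is 9.68% of members higher, against 5.36% of all rows and 11.0% of the bright named genes, and 1.61% lower, against 5.4% and 3.02%. The median log2 fold change, mimic minus control, was 0.009 over the members, -0.009 over all rows and 0.018 over the bright named genes. It turned to -0.007 for the members after quantile normalization, where 27 members had higher and 35 lower means, against 36 and 26 as deposited.

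The intervals were narrow. The 95% interval of the difference lay inside a 1.2-fold change in either direction (0.26 on the log2 scale) for 59 of 62 members (95.2%), and inside 1.5-fold for all 62. Among the 54 members in the brightest 25% of rows it lay inside 1.2-fold for 98.1%, against 86.4% of all named genes there. Those whose interval reached past 1.2-fold were EIF4E, EIF4E1B and the pseudogene RRP7BP. The pooled spread within groups (SD) was 0.065 at the median of the members and 0.08 at the median of the bright named genes. It ran from 0.018 for EEF2 to 0.185 for RRP7BP.

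**Figure D1:**
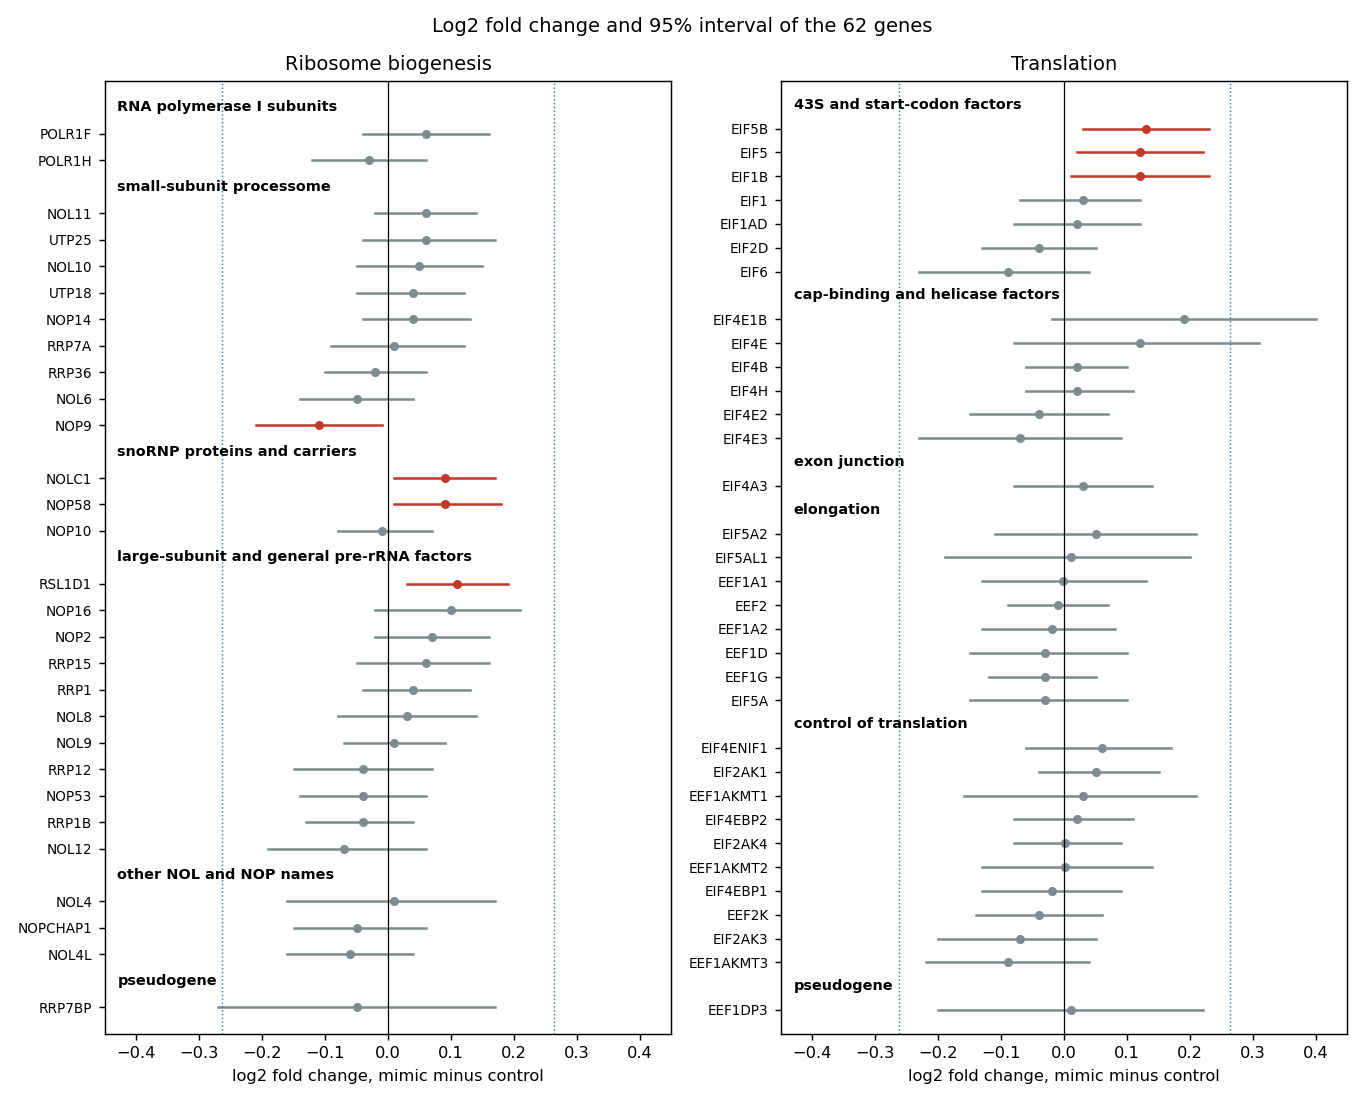
Log2 fold change (mimic minus control, x axis) with its 95% interval for each of the 62 genes, ordered by role down the page, ribosome biogenesis on the left and translation on the right. Red marks an unadjusted limma p under 0.05 (7 genes), dotted lines a 1.2-fold change; the intervals of EIF4E, EIF4E1B and RRP7BP cross a dotted line.

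**Figure D2:**
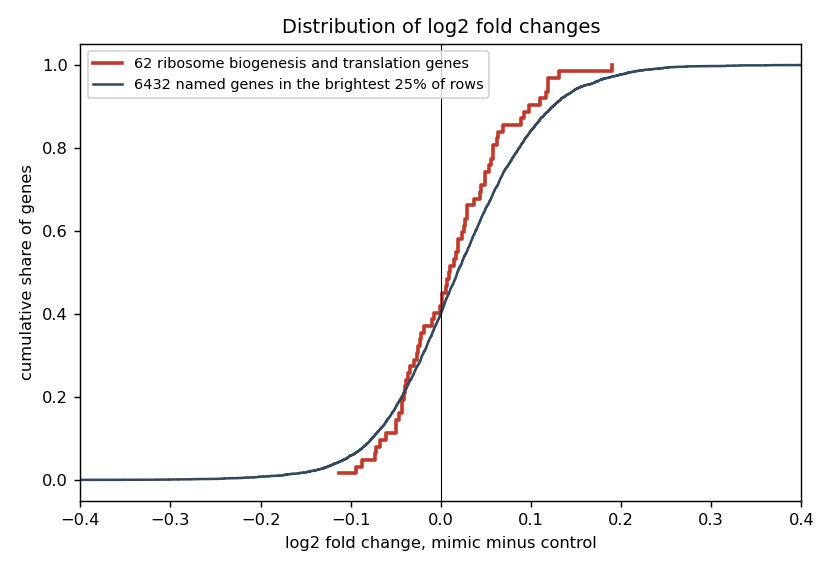
Cumulative share of genes (y axis) by log2 fold change, mimic minus control (x axis), for the 62 genes in red and the 6432 named genes in the brightest 25% of rows in dark blue. The curves cross 0 close together, with medians of 0.009 and 0.018.

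RSL1D1 had the smallest p of the members. It encodes a nucleolar protein with a ribosomal L1 domain that acts in large-subunit formation. Its log2 value was 12.16 at the lowest, 12.18 at the median and 12.21 at the highest of the mimic arrays, against 12.04, 12.08 and 12.10 in control arrays. All 6 mimic arrays lay above all 6 control arrays. That held for 2 members, RSL1D1 and NOLC1 (3.23%), against 0.759% of all rows and 2.85% of the bright named genes, and the reverse held for 0 members, against 0.414% and 0.482%. The log2 fold change was 0.11 (SE 0.04, 95% interval 0.03 to 0.19), or 1.08-fold (limma adjusted p = 0.319 over all rows). When only the brightest 25% of rows were fitted and adjusted, where 1.81% of rows passed (1.42% with higher means), RSL1D1 was the 1 member of 54 (1.85%) that passed (limma adjusted p = 0.0485). That call was lost without any single array (adjusted p from 0.0536 to 0.101), after quantile normalization (adjusted p = 0.0854) and with arrays centred on their medians (adjusted p = 0.0727).

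The large-subunit and general pre-rRNA group held 11 members, of which 7 had higher means on mimic arrays and 1, RSL1D1, had an unadjusted limma p under 0.05. By the exact permutation test NOP2 (p = 0.0411) and RRP1 (p = 0.0476) were under it too, before adjustment. By that test 11.4% of all rows and 21.1% of the bright named genes were under it. The group's median log2 fold change was 0.027, with a range of -0.07 to 0.11. NOP16, a nucleolar protein of large-subunit assembly, had 8.23, 8.43 and 8.5 on mimic arrays (lowest, median, highest) against 8.24, 8.31 and 8.38 on control arrays. Its groups overlapped, and the log2 fold change was 0.10 with an interval from -0.02 to 0.21. NOP2, an rRNA cytosine methyltransferase, had a log2 fold change of 0.07 (-0.02 to 0.16), and 5 of 6 mimic arrays lay above the control mean. RRP15, needed for pre-large-subunit maturation, had 0.06 (-0.05 to 0.16). The paralogs RRP1 and RRP1B, both nucleolar processing factors, differed in sign. RRP1 had 0.04 (-0.04 to 0.13) with 6 of 6 mimic arrays above its control mean. RRP1B had -0.04 (-0.13 to 0.04) with 0 of 6 above its own. For both, the interval included no change and the groups overlapped. Neither passed, and the difference between them was not tested. NOL12, a nucleolar RNA-binding protein, was the lowest of the group at -0.07 (-0.19 to 0.06). NOP53, which brings the RNA exosome to the pre-large subunit, had -0.04, NOL9, a polynucleotide kinase of pre-rRNA processing, had 0.01, NOL8 had 0.03 and RRP12 had -0.04.

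The 3 snoRNP proteins and carriers had the highest median log2 fold change of the 11 role groups, 0.089. Of the 3, 2 had an unadjusted p under 0.05, where 10.8% of all rows and 14.1% of the bright named genes did. The 13 other named genes of snoRNPs and rRNA modification had a median of -0.017, with 6 higher and 7 lower means. NOLC1, also called Nopp140, shuttles between nucleolus and cytoplasm and associates with snoRNPs. It had 11.01, 11.03 and 11.08 on mimic arrays against 10.90, 10.95 and 10.98 on control arrays (lowest, median, highest). Its groups did not overlap, and the log2 fold change was 0.09 (SE 0.04, interval 0.01 to 0.17; limma adjusted p = 0.418). NOP58, a core protein of box C/D snoRNPs, which guide rRNA methylation, had 11.33, 11.40 and 11.44 against 11.23, 11.31 and 11.35. Its lowest mimic array fell just under its highest control array, and the log2 fold change was 0.09 (interval 0.01 to 0.18; limma adjusted p = 0.435). NOP10, a small core protein of box H/ACA snoRNPs and telomerase, had 11.12, 11.15 and 11.19 against 11.13, 11.16 and 11.19. Its groups lay on top of each other, with an interval from -0.08 to 0.07 around a log2 fold change of -0.01. NOPCHAP1, a chaperone that helps NOP58 into new snoRNPs, had -0.05 (-0.15 to 0.06).

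The small-subunit processome group held 9 members, of which 6 had higher and 3 had lower mean values, and its middle log2 fold change was 0.036. NOP9, an RNA-binding protein that acts on the small-subunit part of the precursor, was the only member of all 62 with a lower mean and an unadjusted p under 0.05. It had 8.34, 8.40 and 8.44 on mimic arrays against 8.40, 8.51 and 8.6 on control arrays. All 6 mimic arrays lay below the control mean, while control replicate 6, at 8.40, fell within the mimic range. The log2 fold change was -0.11 (SE 0.05, interval -0.21 to -0.01), or 0.925-fold (limma adjusted p = 0.414). NOL11, which is needed for transcription and processing of the precursor, had 11.58, 11.60 and 11.63 against 11.50, 11.55 and 11.59, a log2 fold change of 0.06 (-0.02 to 0.14). The exact permutation p of NOL11 was 0.00649 before adjustment and 0.244 after it. UTP25 had a log2 fold change of 0.06, NOL10 had 0.05, and UTP18 and NOP14 had 0.04 each. NOL6, a further processome protein, had -0.05 (-0.14 to 0.04). RRP36 had -0.02 and RRP7A 0.01. RRP7A and its pseudogene RRP7BP are near-identical and can share probes, so their rows are uncertain as gene assignments. The 2 RNA polymerase I subunits that are named here were within their spread. POLR1F had a log2 fold change of 0.06 (-0.04 to 0.16) and POLR1H had -0.03 (-0.12 to 0.06). NOL4 and NOL4L, named for the nucleolus, had 0.01 and -0.06.

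**Figure D3:**
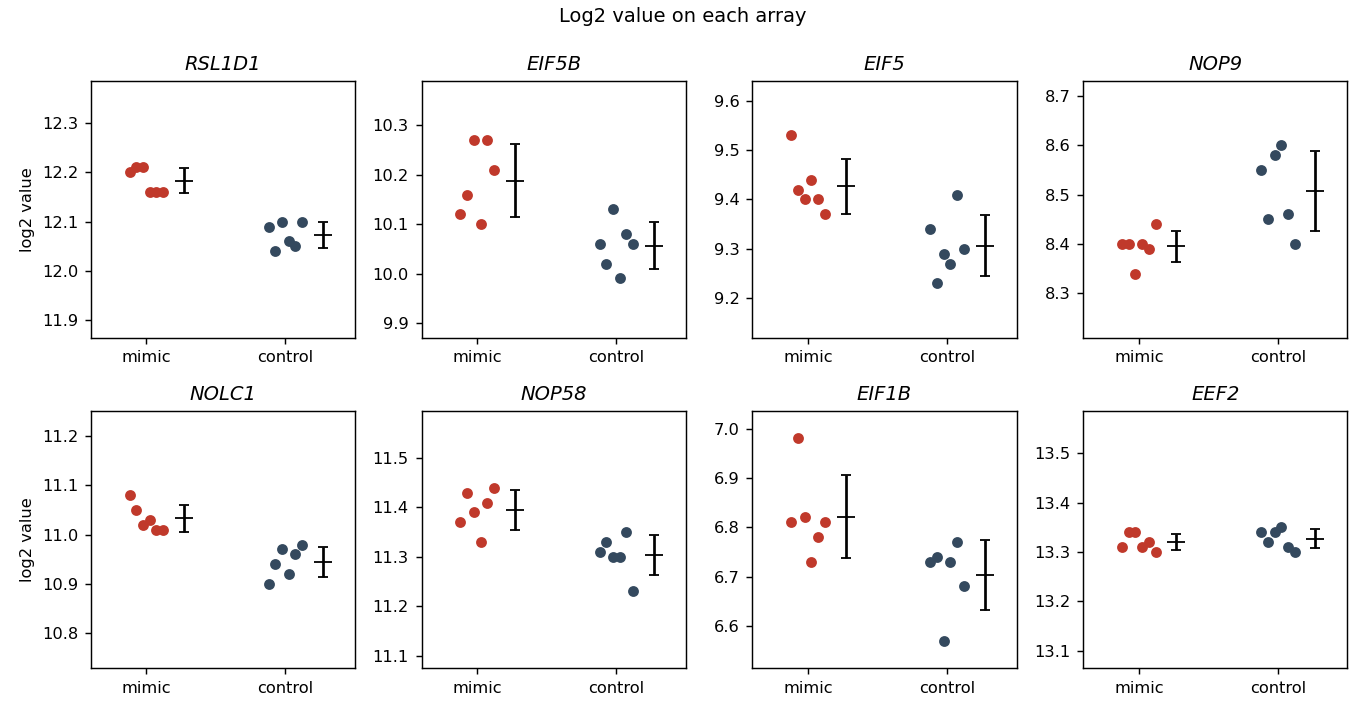
Log2 value (y axis, 0.52 log2 units in every panel) on each of the 6 mimic arrays (red) and 6 control arrays (dark blue), for the 7 genes with an unadjusted limma p under 0.05 and for EEF2. Bars show mean and SD; RSL1D1 and NOLC1 are the panels whose groups do not overlap.

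The group called pre-initiation complex and start-codon factors was filled by gene symbol and held 7 members, 5 with higher and 2 with lower means. It is mixed, as it takes in EIF6, which acts on the large subunit, and EIF1AD, placed there by its symbol alone. Its median log2 fold change was 0.025. Of these 7, 3 had an unadjusted p under 0.05, all with higher means on mimic arrays. That mark with a higher mean was met by 5.36% of all rows and 11.0% of the bright named genes. EIF5B, the GTPase that joins the large subunit to the small one, had 10.10, 10.19 and 10.27 on mimic arrays against 9.99, 10.06 and 10.13 on control arrays. The groups overlapped by mimic replicates 1 and 4 and control replicate 3, and the log2 fold change was 0.13 (SE 0.05, interval 0.03 to 0.23; limma adjusted p = 0.34). EIF5, which makes eIF2 hydrolyse its GTP at the start codon, had 9.37, 9.41 and 9.53 against 9.23, 9.30 and 9.41. The groups overlapped, and the log2 fold change was 0.12 (interval 0.02 to 0.22; limma adjusted p = 0.374), with 6 of 6 mimic arrays above the control mean. EIF1B, a paralog of the start-codon factor EIF1, had 6.73, 6.81 and 6.98 against 6.57, 6.73 and 6.77. Mimic replicate 2 held the highest value, and the log2 fold change was 0.12 with it and 0.09 without it. EIF1 itself had 10.37, 10.51 and 10.54 against 10.41, 10.45 and 10.51, with a log2 fold change of 0.03 (-0.07 to 0.12). EIF1 and EIF1B are close in sequence and can share probes. EIF6, which keeps the large subunit from joining too early, had -0.09 (-0.23 to 0.04), and 1 of 6 mimic arrays lay above the control mean. With all arrays the unadjusted limma p of EIF6 was 0.157. Without control replicate 4, which held its lowest control value, EIF6 had -0.14 and an unadjusted p under 0.05. Dropping the lowest control value makes the fold change more negative by construction, so that p cannot be read as evidence of a difference. EIF2D had -0.04 and EIF1AD 0.02.

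Of the 6 cap-binding and helicase factors, 4 had higher means and 0 had an unadjusted p under 0.05. EIF4E1B, a cap-binding paralog known from the germ line, had 5.6, 5.82 and 6.00 on mimic arrays against 5.35, 5.69 and 5.80 on control arrays. Its log2 fold change was the highest of the members at 0.19 (-0.02 to 0.40), the groups overlapped, and it did not pass (limma adjusted p = 0.517). EIF4E, the cap-binding protein, had 5.92, 6.09 and 6.34 against 5.78, 6.00 and 6.20, a log2 fold change of 0.12 (-0.08 to 0.31). EIF4E2, a cap-binding repressor, had -0.04, and EIF4E3 had -0.07 (-0.23 to 0.09). EIF4B and EIF4H, which stimulate the initiation helicase, had 0.02 each, with intervals of -0.06 to 0.10 and -0.06 to 0.11. EIF4A3, the helicase of the exon junction complex, had 0.03 (-0.08 to 0.14).

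Elongation factors showed small differences. Of 8 members, 0 had an unadjusted p under 0.05, 2 had higher and 6 had lower means, and log2 fold changes ran from -0.03 to 0.05. EEF2, which moves the ribosome along the mRNA, had 13.30, 13.32 and 13.34 on mimic arrays against 13.30, 13.33 and 13.35 on control arrays. Its log2 fold change was -0.01 (-0.09 to 0.07), and 0.01 with arrays centred on their medians. EEF1G, a subunit of the exchange complex that recharges eEF1A, had 12.09, 12.14 and 12.15 against 12.09, 12.16 and 12.20, with 0 of 6 mimic arrays above the control mean and an interval from -0.12 to 0.05. EEF1A1, which delivers aminoacyl-tRNA, had 7.07, 7.35 and 7.45 against 7.26, 7.32 and 7.37, and mimic replicate 4 held the 7.07. Its log2 fold change was -0.0012 (-0.13 to 0.13). EEF1A2, its tissue-restricted paralog, had -0.02, and EEF1D, another exchange subunit, had -0.03. EIF5A, the hypusine-bearing factor that helps stalled ribosomes, had -0.03, EIF5A2 had 0.05 and EIF5AL1 had 0.01. EEF1A1, EEF1A2 and the EIF5A genes have near-identical relatives whose transcripts can bind the same probes, so their rows are uncertain as gene assignments. Whether the EEF1A1 row, with a mean of 7.31 over all arrays, reports the main EEF1A1 transcript is not known.

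Regulators of translation gave 0 of 10 members at an unadjusted p under 0.05 and a median log2 fold change of 0.001. EIF4EBP1 and EIF4EBP2, which hold back EIF4E until mTOR phosphorylates them, had -0.02 (-0.13 to 0.09) and 0.02 (-0.08 to 0.11). The eIF2 kinases were within their spread. EIF2AK1, the haem-regulated kinase, had 0.05 (-0.04 to 0.15), EIF2AK3, the endoplasmic reticulum stress kinase PERK, had -0.07 (-0.20 to 0.05), and EIF2AK4, the amino acid sensor GCN2, had 0.0012 (-0.08 to 0.09). EEF2K, which inactivates EEF2, had -0.04. EIF4ENIF1, the nuclear importer of EIF4E, had 0.06. The eEF1A lysine methyltransferases EEF1AKMT1, EEF1AKMT2 and EEF1AKMT3 had 0.03, 0.0011 and -0.09, the last with an interval from -0.22 to 0.04.

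Genes with several rows gave alike values. EEF1G, EIF4B and NOL10 each have 2 rows. The other EEF1G row had a log2 fold change of -0.01, that of EIF4B 0.03 and that of NOL10 0.06, against -0.03, 0.02 and 0.05 in the rows used.

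A score for each group of genes, the mean log2 value of its genes minus that of all 14884 named genes, is described here without a test. Over all 62 members it ran from 2.653 to 2.707 on mimic arrays (median 2.688) and from 2.661 to 2.689 on control arrays (median 2.666). The groups overlapped, and the mimic mean was 0.013 higher. For the 3 snoRNP proteins and carriers the score was 5.107 to 5.149 on mimic arrays and 5.056 to 5.098 on control arrays. These do not overlap, with a difference of 0.058. The score restates the values of NOLC1 and NOP58 given above, as NOP10 had -0.01. For elongation factors it was 2.348 to 2.508 on mimic and 2.384 to 2.453 on control arrays. Regulators of translation had 2.034 to 2.152 on mimic and 2.082 to 2.147 on control arrays. Single arrays took extremes unevenly. Mimic replicate 4 was the lowest mimic array for 20 of 62 members and control replicate 4 the lowest control array for 17, while control replicate 3 was the highest control array for 21. Even sharing would give about 10.3 each.

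**Figure D4:**
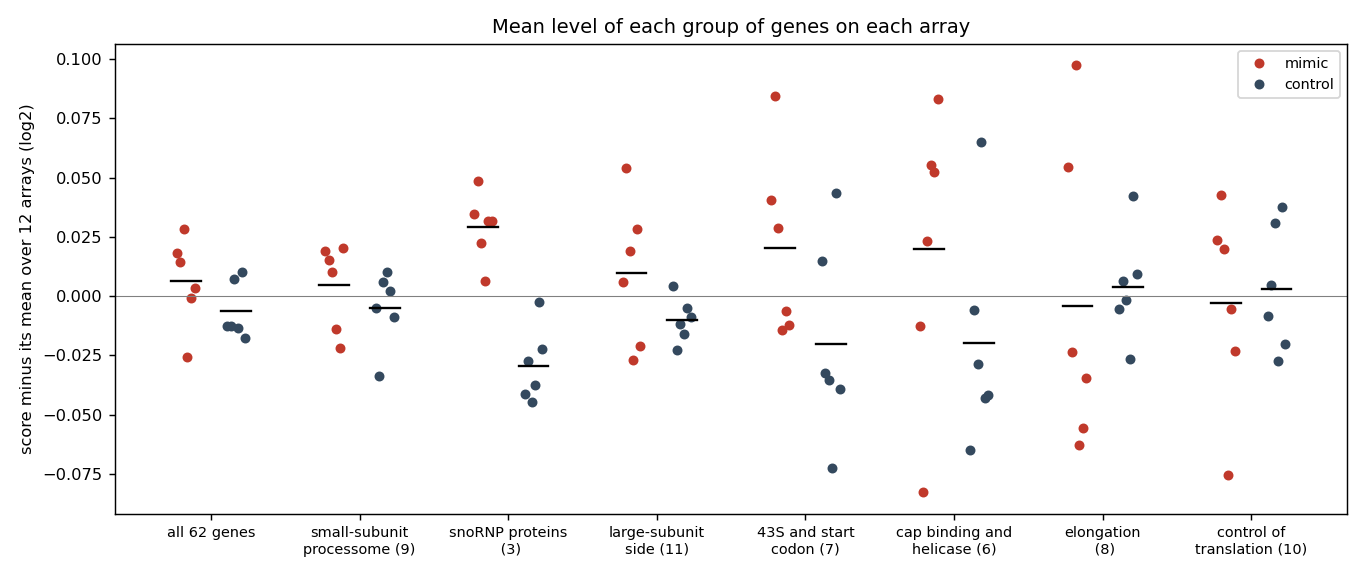
Score of each group of genes on each array, minus its mean over the 12 arrays (y axis, log2), with mimic arrays in red left of control arrays in dark blue and a black line at each mean. Only the set of 3 snoRNP proteins and carriers (NOLC1, NOP58, NOP10) shows mimic and control arrays apart. NOLC1 does so on its own. The other 7 sets overlap.

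Other genes of the pathway were taken from 8 lists, of whose 191 genes 138 are named here. Over all rows 0 of the 138 passed limma's test, and 16 (11.6%) had an unadjusted p under 0.05, near the 10.8% of all rows and below the 14.1% of the bright named genes. Of the 16, 12 (8.7%) had higher and 4 (2.9%) had lower means. All mimic arrays lay above all control arrays for 7 of the 138 (5.07%), against 0.759% of all rows and 2.85% of the bright named genes. The reverse held for 2 (1.45%), against 0.414% and 0.482%. The median log2 fold change of the 138 was 0.03. In the fit of the brightest 25% of rows 2 of 129 passed (1.55%), both with higher means, near the background of 1.81% of those rows (1.42% higher). DDX52, a helicase of small-subunit assembly, had 10.35, 10.39 and 10.45 on mimic arrays against 10.20, 10.24 and 10.29 on control arrays, which do not overlap. In that fit it rose 1.11-fold (limma adjusted p = 0.0327, against 0.241 over all rows). SDAD1, a large-subunit export factor, had 10.15, 10.27 and 10.30 against 9.97, 10.11 and 10.14, also without overlap. In the same fit it rose 1.13-fold (limma adjusted p = 0.0435, against 0.241 over all rows). Of 12 fits without 1 array, 5 called DDX52 and 2 called SDAD1. Both calls were lost when rows at or above the median row were fitted, and that of SDAD1 also with arrays centred on their medians (adjusted p = 0.0645).

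Small-subunit assembly genes had 5 of 27 at an unadjusted p under 0.05, of which 4 had higher means, among them LTV1 (0.13) and RIOK1 (0.15). The background for this and the next lists is 10.8% of all rows and 14.1% of the bright named genes. Large-subunit assembly genes had 3 of 37, 2 of them higher, with NMD3, the nuclear export adaptor of the large subunit, at 0.16 and WDR18 at -0.10. The groups of NMD3 did not overlap, nor did those of the helicase DDX21, at 0.06. The 13 RNA exosome genes, whose products degrade and trim pre-rRNA, had 2, EXOSC9 at 0.15 and the nuclease DIS3 at 0.09. EXOSC8 also had 0.09 and missed that mark. Of 5 named genes of ribosomal DNA transcription 1 had an unadjusted p under 0.05, nucleolin (NCL) at 0.09 with groups that do not overlap, while TCOF1 had 0.09 and did not. Of 13 snoRNP and rRNA modification genes it was DIMT1 alone, an rRNA adenine dimethyltransferase, at 0.09 and without overlap, while fibrillarin (FBL), the methyltransferase of box C/D snoRNPs, had -0.07 with all mimic arrays below all control arrays. Among 12 other translation factors DENR, a recycling factor, had 0.12 and GCN1, the partner of the kinase GCN2, had -0.13, each with groups that do not overlap. The 18 cytosolic aminoacyl-tRNA synthetase genes had 0, with a range of -0.07 to 0.08. Of 13 upstream control genes PDCD4, an inhibitor of the initiation helicase, had 0.14, and MKNK2, a kinase of EIF4E, had -0.15. MTOR, the growth-control kinase, had -0.09 and missed that mark. All values in this paragraph are log2 fold changes, mimic minus control, and none of these genes passed over all rows.

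Promoter windows from 250 bases before to 50 bases after the gene's start were taken from RefSeq (GRCh38.p14) and matched 48 of 62 members. They were searched on both strands for CACGTG, for the YY1 motif, for CCGGAAG and for the palindrome that stands in capitals in the NOL9 stretch, and the shares are descriptions without a test. CACGTG, the E-box bound by factors of the MYC family, stood in 14 of 48 members (29.2%), against 8.77% of all genes, 10.9% of protein-coding genes and 13.0% of named genes in the brightest 25% of rows. The palindrome stood in 3 of 48 (6.25%), against 0.505%, 0.726% and 1.23%. CCGGAAG, the core of ETS-family sites, stood in 14 of 48 (29.2%), against 12.2%, 16.5% and 24.2%. The YY1 motif stood in 2 of 48 (4.17%), against 1.04%, 1.58% and 2.76%. CACGTG and the palindrome read the same on both strands. No matches of different motifs overlapped in the members, though the 2 matches of CCGGAAG in NOP16 overlap each other. The 14 genes with CACGTG had a median log2 fold change of 0.035, 11 of them higher, and the other 34 had 0.001, 18 of them higher. Those with CCGGAAG had 0.0, with 7 of 14 higher, and those without it 0.015. Of the 6432 named genes in the brightest 25% of rows 3853 had higher means, with a median of 0.018. The log2 fold change of MYC was 0.003 (-0.08 to 0.09) and that of MAX 0.03 (-0.07 to 0.13). Whether genes with and without a motif differ was not tested.

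The 3 members with the palindrome are shown because it is rare, and EIF1B and UTP18 as examples of members with CACGTG before the start. Other members carry it there too, among them EIF4E, EIF4B and NOP10. EIF1B is also one of the members with an unadjusted limma p under 0.05, so the examples are not a neutral choice. Each stretch is upstream of the gene's start and reads 5′ to 3′ on the gene's strand, with motif letters in capitals; the later capitals of UTP18 are CCGGAAG on the other strand.
NOL9 (chr1:6554514-6554613, minus): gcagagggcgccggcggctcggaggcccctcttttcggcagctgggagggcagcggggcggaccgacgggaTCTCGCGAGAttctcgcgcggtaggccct
NOP14 (chr4:2963407-2963506, minus): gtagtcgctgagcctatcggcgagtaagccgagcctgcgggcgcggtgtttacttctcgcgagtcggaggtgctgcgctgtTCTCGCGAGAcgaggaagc
NOL11 (chr17:67717836-67717935, plus): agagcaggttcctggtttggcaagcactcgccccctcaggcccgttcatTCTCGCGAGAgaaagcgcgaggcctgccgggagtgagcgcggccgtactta
EIF1B (chr3:40309606-40309705, plus): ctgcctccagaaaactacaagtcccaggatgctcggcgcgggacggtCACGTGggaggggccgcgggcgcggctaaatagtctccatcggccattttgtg
UTP18 (chr17:51260410-51260509, plus): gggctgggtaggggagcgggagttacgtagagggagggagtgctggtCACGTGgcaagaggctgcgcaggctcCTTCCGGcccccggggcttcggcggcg
NOL9, NOP14 and NOL11 had log2 fold changes of 0.01, 0.04 and 0.06, none past the test.

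Over the whole series the arrays' medians lay between 4.44 and 4.51. Of 8 HEK293 markers 5 are named here, with a mean of 7.03 to 7.19 on mimic and 7.03 to 7.15 on control arrays. VIM, SOX2, SALL2, LHX1 and PAX2 averaged 8.01, 7.83, 7.58, 6.47 and 5.61 on mimic arrays and 8.08, 7.80, 7.62, 6.38 and 5.59 on control arrays. The mean was 4.10 to 4.30 on mimic and 4.09 to 4.27 on control arrays for 2 of 6 listed fibroblast genes. It was 4.53 to 4.72 on mimic and 4.57 to 4.87 on control arrays for 4 of 7 leukocyte genes. For 4 of 4 hepatocyte genes it was 4.31 to 4.56 on mimic and 4.35 to 4.56 on control arrays. Single genes lay far from these means. On mimic arrays LUM averaged 5.74 and DCN 2.68, CD68 6.31 and LYZ 3.02, and TTR 5.54 and AFP 3.46. LUM and CD68 were thus above PAX2, and levels of different rows are not comparable. Of the leukocyte genes 1 had an unadjusted p under 0.05, SPI1, at 5.39 on mimic and 5.71 on control arrays (log2 fold change -0.31, 0 of 6 mimic arrays above the control mean). For 3 of 5 listed epithelial cancer markers the mean was 5.79 to 5.92 on mimic and 5.79 to 5.99 on control arrays. EPCAM averaged 7.94 on mimic and 7.95 on control arrays, KRT19 5.45 on mimic and 5.57 on control arrays, and CLDN4 4.14 on mimic and 4.16 on control arrays. Whether these markers bear on the members' values was not tested. Among 8 stress and interferon genes 0 had an unadjusted p under 0.05 by limma, and their mean was 6.10 to 6.19 on mimic and 6.07 to 6.20 on control arrays.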

How the data were processed

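The table the authors deposited holds log2 values for 53617 transcript clusters (rows) on 12 arrays. Per the submitters' processing notes, Affymetrix Expression Console produced them. Version and normalization were not given in the sources used here. A log2 scale was read from the values, 1.62 to 14.4. Rows were named through the platform annotation (16098 rows, 14884 genes; 37519 rows unnamed here), and the row with the highest mean stood for a gene. Levels of different rows are not comparable.

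Values were fitted as deposited with limma 3.58.1 in R 4.3.3 (lmFit, eBayes, all rows, no block, two-sided), mimic minus control, with Benjamini-Hochberg adjustment at 0.05, and again on the 13405 rows in the brightest 25% (mean of at least 6.29). The fit was also run on simulated data with independent noise, as a check of the code. The differences planted there were larger than those of the members, so that run does not bear on power or false calls here. Exact permutation tests used all 924 assignments, for which the smallest p is 0.00216. Members and lists were chosen with earlier results of these data known. Named genes are the up to 4 of smallest p and the brightest in each role group, the extremes, RSL1D1 and the up to 3 of smallest p per pathway list, with other members in statements of range or complex. Alternatives were 2 scalings, a trend prior, row filters, a replicate block, row averaging, single arrays left out and the permutation test. The number of arrays limits precision.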

Additional observations from a re-analysis of the deposited data

Results flagged for a closer look

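Dixon's test of the gap between an extreme array and its neighbour was run on 146 sets of 6 arrays and marked 8 of them. Chance marks about 1 in 20 sets. Among mimic arrays, EIF1B was highest in replicate 2 at 6.98 (others 6.73 to 6.82). In mimic replicate 3, EEF1A2 was highest at 8.70 (others 8.49 to 8.57) and EIF5A at 7.90 (others 7.57 to 7.69). SDAD1 was lowest in mimic replicate 4 at 10.15 (others 10.26 to 10.30). In control replicate 4, EIF6 was lowest at 8.66 (others 8.88 to 9.0) and EIF4H highest at 10.74 (others 10.60 to 10.64). In control replicate 3, NOL4 was highest at 5.45 (others 5.00 to 5.16) and EEF1DP3 at 5.07 (others 4.46 to 4.68). Without control replicate 4 the log2 fold change of EIF6 was -0.14, against -0.09 with it, and that of EIF5A was -0.07 without mimic replicate 3, against -0.03. In that fit without control replicate 4, EIF6 had an unadjusted limma p under 0.05, against 0.157 with all arrays. Both fits leave out an array seen to hold the extreme value, which by itself makes the fold change more negative. They cannot be read as evidence of a difference. Neither EIF6 nor EIF5A passed the adjusted limma test.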

How the results depend on the processing

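The count of 0 members called over all rows was 1 in the brightest 25% of rows and 0 under every other setting run. The count of 1 in those rows was 2 with a trend and robust prior and 0 after quantile normalization, with centred arrays, with a replicate block, at or above the median row, over all rows and without any single array (0 to 0). The 7 members with an unadjusted p under 0.05 were 4 after quantile normalization (3 higher, 1 lower), 4 with a replicate block (4 higher, 0 lower), 7 with arrays centred (7 higher, 0 lower) and 4 to 8 without single arrays, with 4 without mimic replicate 1, mimic replicate 3 or control replicate 3. With the trend and robust prior 8 were higher and 1 lower, and in the brightest 25% of rows 7 were higher and 1 lower. With arrays centred, NOP9 was not among them and EIF4E1B was. The 2 members whose groups do not overlap were 2 to 4, with 4 without mimic replicate 4 or control replicate 5. The 16 pathway genes were 32 with the trend and robust prior, 26 at or above the median row, 29 in the brightest 25%, and 10 to 17 without single arrays, with 10 without mimic replicate 1. The median member log2 fold change of 0.009 was -0.007 after quantile normalization and 0.006 to 0.02 without single arrays. Of the named genes' log2 fold changes, EIF1 turned to -0.00044 after quantile normalization, and NOP10 and EEF2 to 0.01 with arrays centred. NOL4 ran from -0.03 to 0.07 and EEF1DP3 from -0.03 to 0.10 without single arrays. RSL1D1, DDX52 and SDAD1 passed in the brightest 25% alone. The cause of these changes was not tested. Same-numbered arrays correlated between -0.113 and 0.0841 in their deviations from group means, so the data do not show that the numbers pair the arrays, and the replicate block stands as an alternative fit. Under that block DDX52 and SDAD1 were not called in the brightest 25% (adjusted p = 0.112 each). Overlap of groups has no value under the prior, filters or block. The background of the probes is not known, which limits the dimmer rows.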
